A study of Mus musculus with 12 samples.

Results

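The genes described here are 37 genes of the lysosome, measured in mouse adipose tissue by RNA sequencing. They were chosen by name, with earlier results of these data known, and sorted into 3 classes. Of these genes, 15 belong to the proton pump that acidifies lysosomes, and 10 encode lysosomal membrane and transport proteins. The other 12 encode enzymes that act in the lysosomal lumen, with progranulin among them. The class names are approximate: Hgsnat, an enzyme set in the membrane, is counted as lumenal, and the soluble transport protein Npc2 as membrane. All 37 were found among the 53431 gene identifiers of the count table, and all were among the 15968 genes left by the filter on low counts. No cathepsin, and only the pump subunit isoforms that most cells use, are in the set.

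The series holds 12 libraries, 4 from wild-type mice (WT), 4 from untreated mice labelled Bbs2-/-, and 4 from mice labelled Bbs2-/- that received Genz-667161. The product of Bbs2 belongs to the BBSome, which moves membrane proteins of the primary cilium. People without it have Bardet-Biedl syndrome and are often obese. Genz-667161 is an inhibitor of glucosylceramide synthase (Ugcg), which makes the building block of most glycosphingolipids. It was mixed into the feed at 0.033% by weight from month 2 to month 6 of life. All mice were of a mixed C57BL/6 x 129/SvJ background, and adipose tissue was frozen at 6 months. WT 2 and WT 3 are the only libraries not labelled as merged, so that label differs within WT and is shared by all libraries labelled Bbs2-/-. The fat depot, the sex, and whether each numbered sample was a separate mouse are not in the labels, so a p-value here speaks only to the spread among these samples, part of which may be technical.

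Lysosomes break down material taken up by endocytosis, phagocytosis and autophagy. A proton pump, the vacuolar ATPase, keeps their lumen acid: its V1 sector in the cytosol splits ATP, and its V0 sector in the membrane passes protons. The acid lumen is where the hydrolases work, and heavily glycosylated membrane proteins and transporters line the membrane and export the products. In adipose tissue both adipocytes and macrophages have lysosomes, and macrophages that clear lipid are known for large amounts of them.

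The 12 libraries held 16317865 to 20224200 estimated counts each. Levels are counts per 1e6 of the scaled library size (CPM) unless another unit is named. Bbs2 was at 12.1 to 12.7 CPM in libraries labelled WT and at 53.7 to 70.6 CPM in the 8 labelled Bbs2-/-, so its counts were higher where the label says that the gene is lost, and every direction here is between libraries as labelled. The library WT 1 held epididymis RNA (6 markers summing to 1220.7 CPM, at most 4.5 in any other library), and 4 libraries (WT 1, WT 4, treated 1 and treated 3) held 48 to 164 counts of Foxj1, a factor of ciliated epithelium, against at most 2 in the other 8. The adipocyte markers, 10 in number, were present in every library, at summed levels of 29279.7 to 48774.2 CPM in WT, 15031.3 to 19327.5 in untreated Bbs2-/- and 30763.8 to 47601.4 in treated Bbs2-/- libraries. The 15 macrophage markers summed to 489.9 to 1485.5, 4111.7 to 5830.5 and 543.2 to 1109.1 CPM in the same order, with no marker at 0. In bulk tissue, fewer cells of a type and less RNA per cell cannot be told apart.

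The promoters of some members carry a short palindrome, TCACGTGA, which is the E-box form known to be bound by the transcription factor TFEB and its relatives, regulators of many lysosomal genes. RefSeq promoter windows (build GRCm38.p6, 250 bases before to 50 bases from the start site on) were found for 31 of the 37 members. TCACGTGA, read on both strands because it is its own reverse complement, was in the window of 4 of these 31 members (12.9%), against 1.12% of the 27025 genes with a window. The core CACGTG, which every TCACGTGA contains, was in 9 of 31 members (29%), against 8.09% of all genes. The 4 promoters with TCACGTGA are shown because they are the members that carry the full motif, and Lamp1 was added, after the motif counts were seen, because its window held 4 copies of the core. Each is given 5′ to 3′ on the gene's strand over 180 bases, of which the last 30 begin at the start site. Capitals mark TCACGTGA or CACGTG.

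Atp6v1a (chr16:44139230-44139409, minus strand): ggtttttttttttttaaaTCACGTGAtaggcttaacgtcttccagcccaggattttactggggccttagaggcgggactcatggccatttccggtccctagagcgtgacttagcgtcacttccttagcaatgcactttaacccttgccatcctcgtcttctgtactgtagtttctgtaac
Atp6v0d1 (chr8:105566035-105566214, minus strand): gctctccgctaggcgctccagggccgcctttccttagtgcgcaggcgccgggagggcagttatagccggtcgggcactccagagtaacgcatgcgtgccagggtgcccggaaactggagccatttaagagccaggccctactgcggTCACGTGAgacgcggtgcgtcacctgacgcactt
Atp6v0e (chr17:26676246-26676425, plus strand): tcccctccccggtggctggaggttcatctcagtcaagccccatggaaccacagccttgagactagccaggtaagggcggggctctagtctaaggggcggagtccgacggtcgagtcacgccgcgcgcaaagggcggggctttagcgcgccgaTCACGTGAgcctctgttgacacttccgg
Mcoln1 (chr8:3500369-3500548, plus strand): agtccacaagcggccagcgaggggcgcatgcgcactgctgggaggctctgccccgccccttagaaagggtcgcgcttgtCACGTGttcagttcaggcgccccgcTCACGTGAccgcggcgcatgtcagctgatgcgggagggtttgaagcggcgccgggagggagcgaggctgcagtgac
Lamp1 (chr8:13159011-13159190, plus strand): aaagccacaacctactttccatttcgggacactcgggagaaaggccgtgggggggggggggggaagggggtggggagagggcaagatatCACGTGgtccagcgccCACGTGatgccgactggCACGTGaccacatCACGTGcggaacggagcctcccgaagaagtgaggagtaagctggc

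In Atp6v0d1 the motif began 4 bases before the start site, and in Mcoln1 and Atp6v1a it began 46 and 132 bases before it. In Atp6v0e it lay just inside the transcribed part. Of these 4 genes, Atp6v1a was the one called higher in untreated Bbs2-/- libraries than in WT. Of the 9 members with the core CACGTG, 3 were called higher, as were 16 of the 22 members whose windows lacked it. Among the 6 members with no window it was 4, and 19.6% of all genes tested were called higher. The difference between members with and without the core was not tested. A match of letters is a description of these windows and shows no binding.

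The comparison of untreated Bbs2-/- with WT asks which genes differ with the genotype. Of the 37 members, 23 were higher in untreated Bbs2-/- libraries and none was lower. The test was edgeR's quasi-likelihood test, with Benjamini-Hochberg adjustment over all 15968 genes and a threshold of 0.05. Of all genes tested, 19.6% were called higher and 19.7% lower. Because the members were chosen with earlier results of these data known, their share was not tested against that of all genes. The members that rose were 8 of 15 pump genes, 7 of 10 membrane genes and 8 of 12 lumenal genes, and the median log2 fold change was 0.41, 0.60 and 0.59 in these classes, against -0.019 over all genes tested. A rise of at least 1 on the log2 scale was seen for 8 members, and a fall of that size for none. Of the 15968 genes tested, 3252 changed by at least that much, up or down. Every untreated Bbs2-/- library was above every WT library for 21 of the 37, which was so for 19.5% of all genes tested. Of the 23 calls, 16 were kept in every alternative that was run, apart from the fit that had the macrophage level as covariate and the stricter thresholds on p and on the size of the change. The differences between classes were not tested. Some members overlap a gene on the opposite strand (Lamp1 with Grtp1, Idua with Dgkq and Slc26a1, Grn with Fam171a2, Ppt1 with Cap1, Sgsh with Card14, Atp6v1b2 with Slc18a1, Atp6v1h with Rgs20, Atp6v1e1 with Slc25a18, Npc1 with Rmc1, Atp6v0b with Gm12841). The strand setting of the counting is not known here, and the counts of these genes are uncertain to that extent.

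**Figure D1:**
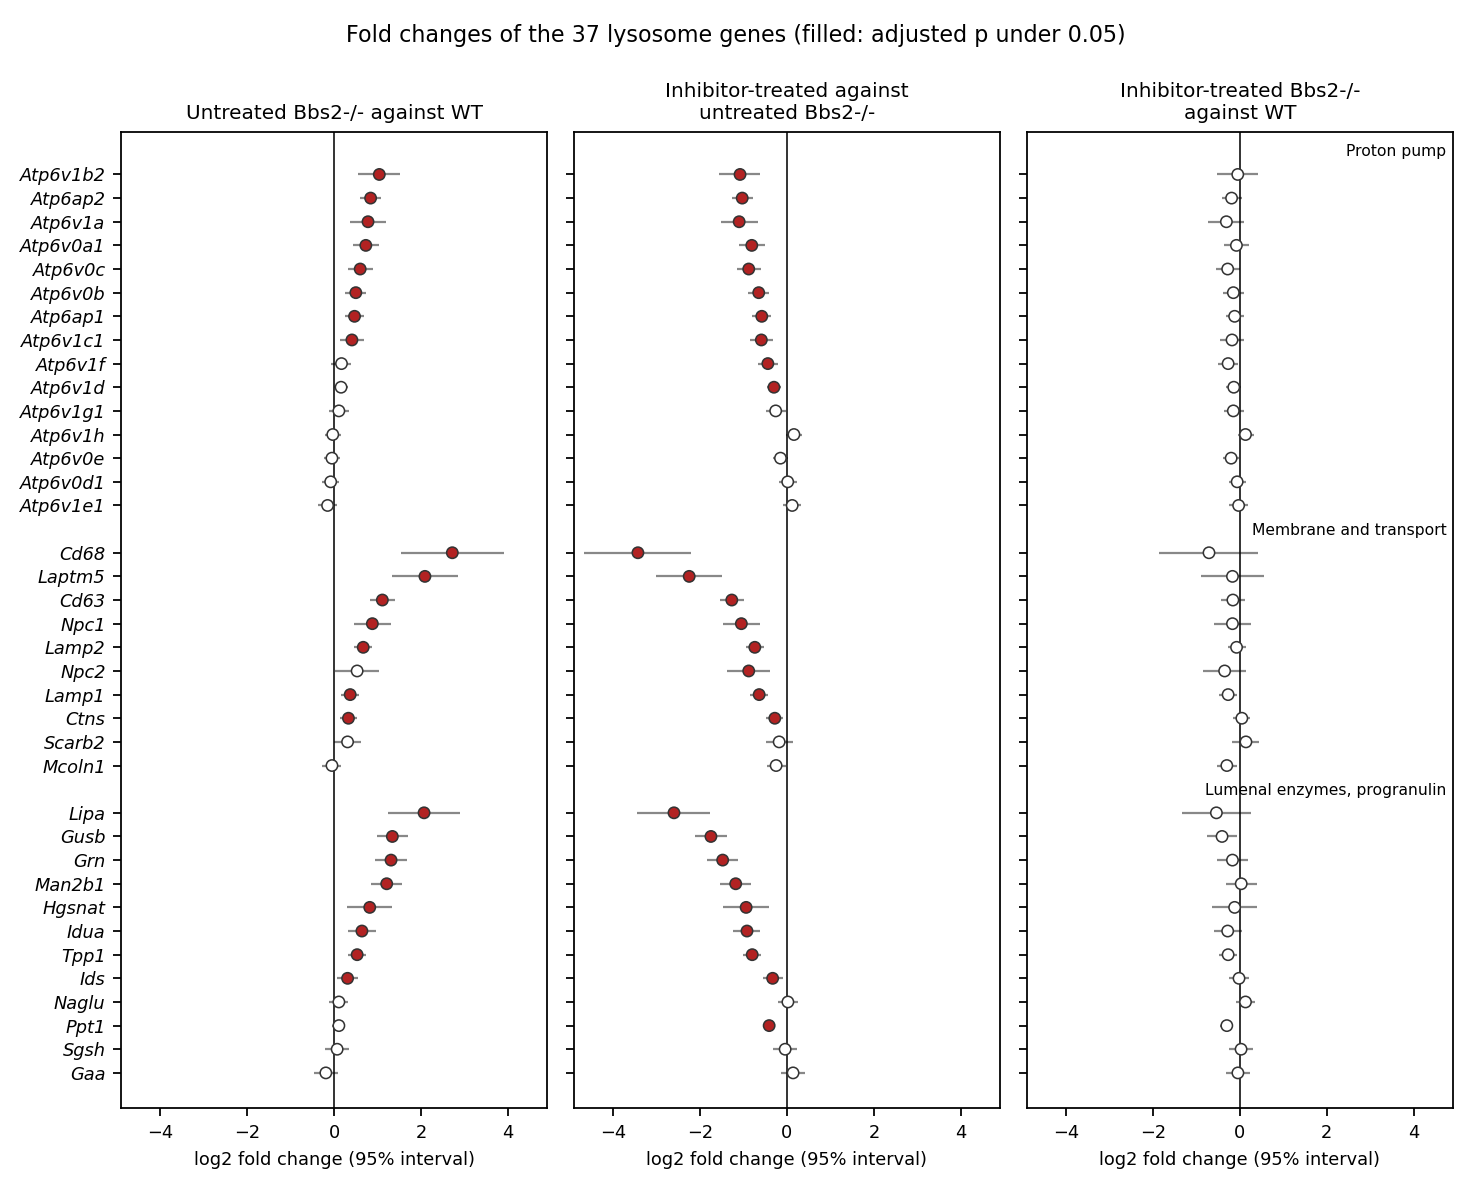
Log2 fold changes of the 37 members with 95% confidence intervals in the 3 comparisons, by class and in the order of the first panel, from the edgeR fit of all 12 libraries. Filled points passed an adjusted p of 0.05: 23 in the first panel, all to the right of 0, 27 in the second, all to the left, and none in the third.

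Among the membrane sector (V0) subunits of the pump, Atp6v0a1, Atp6v0b and Atp6v0c rose, while Atp6v0d1 and Atp6v0e did not pass the test. Atp6v0a1 encodes the large subunit a1, which forms the path of protons through the membrane together with the ring of c subunits. It was at 255, 274, 197 and 207 CPM in WT 1 to 4 and at 391, 381, 401 and 378 in untreated Bbs2-/- 1 to 4. The groups did not overlap, and the untreated Bbs2-/- libraries lay closer together (SD 10.6) than the WT libraries (SD 37.1). The log2 fold change was 0.73 (SE 0.14, adjusted p = 0.00154). The ring subunits Atp6v0b and Atp6v0c had log2 fold changes of 0.50 (adjusted p = 0.00408) and 0.60 (adjusted p = 0.00355). Atp6v0d1, which links the ring to the stalk of the pump, was at -0.079 (95% interval -0.28 to 0.12), and the small subunit Atp6v0e at -0.050 (-0.23 to 0.13). Both of these genes carry TCACGTGA in the promoters shown above. Their signs turned with library size alone in place of TMM scaling, which moved the median of all genes from -0.019 to 0.16.

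In the cytosolic sector (V1), the genes that rose were Atp6v1a and Atp6v1b2, whose proteins form the ring that binds ATP, and Atp6v1c1, which clamps the stator. Their log2 fold changes were 0.78 (SE 0.19, adjusted p = 0.00738), 1.04 (SE 0.22, adjusted p = 0.00301) and 0.41 (SE 0.12, adjusted p = 0.0209). Atp6v1a was at 184 CPM in WT 1 and at 86.5 to 113 in the other WT libraries, against 196 to 214 in untreated Bbs2-/- libraries. Atp6v1b2 was at 214, 203, 123 and 137 CPM in WT 1 to 4 and at 362, 350, 312 and 366 in untreated Bbs2-/- 1 to 4, with no overlap. Without WT 2 and WT 3, the only libraries not labelled as merged, neither Atp6v1a (0.56, adjusted p = 0.0913) nor Atp6v1c1 (0.28, adjusted p = 0.198) passed. Atp6v1c1 also did not pass when 1 of WT 2, WT 3, WT 4 or untreated Bbs2-/- 1 was left out (adjusted p 0.0541 to 0.0638), nor on log2 FPKM values (0.33, adjusted p = 0.0540).

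The remaining V1 subunits did not pass the test, with log2 fold changes of -0.15 to 0.17. Of these, Atp6v1d alone did not overlap between the groups, at 57 to 63.4 CPM in WT and 64.6 to 72.8 in untreated Bbs2-/- libraries. The rotor subunits Atp6v1d and Atp6v1f were at 0.16 (95% interval -0.0079 to 0.33) and 0.17 (-0.067 to 0.40), and the stator subunits Atp6v1e1 and Atp6v1g1 at -0.15 (-0.36 to 0.061) and 0.11 (-0.11 to 0.34). Atp6v1h, a regulatory subunit and the pump gene nearest to 0, was at 99.7, 102, 95.6 and 94.5 CPM in WT 1 to 4 and at 107, 90.0, 92.2 and 95.2 in untreated Bbs2-/- 1 to 4. These groups overlapped across their whole ranges, and the log2 fold change was -0.030 (95% interval -0.21 to 0.15). With library size alone in place of TMM scaling, the values of Atp6v1d, Atp6v1f and Atp6v1g1 passed the test (0.35, 0.36 and 0.30), Atp6v1e1 was at 0.033 and Atp6v1h at 0.15.

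Both accessory proteins of the pump rose. Atp6ap2, the prorenin receptor, takes part in the assembly of the pump. It was at 88.9, 85.3, 65.5 and 70.9 CPM in WT 1 to 4 and at 149, 137, 122 and 147 in untreated Bbs2-/- 1 to 4, with no overlap. Its log2 fold change was 0.84 (SE 0.11, adjusted p = 0.000199), the smallest p of the 15 pump genes. Atp6ap1, which also serves assembly, was at 211, 221, 177 and 184 CPM in WT and at 316, 249, 265 and 264 in untreated Bbs2-/- libraries. The groups did not overlap, with SDs of 21.4 CPM in WT and 29.1 CPM in untreated Bbs2-/- libraries, and the log2 fold change was 0.47 (SE 0.10, adjusted p = 0.00334).

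Of the membrane genes, Lamp2, Cd63 and Laptm5 had the smallest p-values. Cd63, a tetraspanin of late endosomes and lysosomes, was at 199, 210, 158 and 207 CPM in WT 1 to 4 and at 512, 382, 376 and 403 in untreated Bbs2-/- 1 to 4. The groups were well apart, and the log2 fold change was 1.11 (SE 0.13, adjusted p = 0.000126). Lamp2, a main glycoprotein of the lysosomal membrane with a role in autophagy, was at 322, 258, 249 and 277 CPM in WT and at 479, 438, 422 and 419 in untreated Bbs2-/- libraries (log2 fold change 0.67, SE 0.094, adjusted p = 0.000320). WT 1 was the highest of its group here, and no WT library reached the lowest Bbs2-/- library. Laptm5, a lysosomal membrane protein of blood-derived cells, was at 168, 125, 60.9 and 98.5 CPM in WT and at 443, 498, 392 and 586 in untreated Bbs2-/- libraries (log2 fold change 2.09, SE 0.35, adjusted p = 0.000913).

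Cd68, a lysosomal glycoprotein used as a macrophage marker, is described because its fold change was the largest, a choice made after its values were seen. It was at 176, 68.2, 25.3 and 69.5 CPM in WT 1 to 4 and at 713, 523, 485 and 521 in untreated Bbs2-/- 1 to 4. WT 1 was more than the sum of any pair of the other WT libraries, and it still lay far under the untreated Bbs2-/- libraries. The log2 fold change was 2.72 (SE 0.54, adjusted p = 0.00268).

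Of the other membrane members, Lamp1, a main glycoprotein of the lysosomal membrane like Lamp2, rose by a log2 fold change of 0.37 (SE 0.10, adjusted p = 0.00936). It did not pass without the 4 libraries that held Foxj1 counts (0.26, adjusted p = 0.131). Npc1, which moves cholesterol out of the lysosome, had 0.88 (SE 0.20, adjusted p = 0.00446), and its partner Npc2, which hands cholesterol to it, had 0.53 and did not pass (adjusted p = 0.0856). Npc2 passed when WT 2 (0.69, adjusted p = 0.0457) or untreated Bbs2-/- 1 (0.71, adjusted p = 0.0209) was left out, and with library size alone (0.74, adjusted p = 0.0225). The cystine exporter Ctns had 0.33 (SE 0.091, adjusted p = 0.0131). Neither Npc1 (0.75, adjusted p = 0.0653) nor Ctns (0.26, adjusted p = 0.117) passed without WT 2 and WT 3. Scarb2, the receptor that carries glucocerebrosidase to lysosomes, was at 0.31 (adjusted p = 0.103) and passed without WT 1 (0.43, adjusted p = 0.0240) and with library size alone (0.49, adjusted p = 0.0349). Mcoln1, a calcium channel of the lysosomal membrane and another gene with TCACGTGA in its promoter, was nearest to 0. It was at 32.6, 38.2, 35.3 and 31.7 CPM in WT and at 35.4, 33.5, 34.2 and 30 in untreated Bbs2-/- libraries, which overlapped (log2 fold change -0.049, 95% interval -0.27 to 0.17), and with library size alone it was 0.14.

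In the lumen, Gusb, Grn and Man2b1 had the smallest p-values. Gusb, the beta-glucuronidase that trims glycosaminoglycans, was at 160, 126, 94.1 and 103 CPM in WT 1 to 4 and at 358, 294, 289 and 285 in untreated Bbs2-/- 1 to 4 (log2 fold change 1.34, SE 0.16, adjusted p = 0.000169). No WT library came near the lowest untreated library. Grn encodes progranulin, a protein that is delivered to lysosomes and cut into granulins there. It was at 431, 350, 283 and 349 CPM in WT and at 957, 778, 767 and 1004 in untreated Bbs2-/- libraries (log2 fold change 1.31, SE 0.17, adjusted p = 0.000197). Man2b1, the alpha-mannosidase that trims glycans of glycoproteins, was at 206, 157, 117 and 154 CPM in WT. In untreated Bbs2-/- libraries it was at 369, 369, 364 and 365, with an SD of only 0.718% of the mean, and the log2 fold change was 1.21 (SE 0.17, adjusted p = 0.000271).

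The members that take part in the stepwise breakdown of heparan sulfate, Gusb among them, did not all pass the test. Besides Gusb, the genes Idua, Ids and Hgsnat rose, with log2 fold changes of 0.64 (SE 0.14, adjusted p = 0.00443), 0.31 (SE 0.11, adjusted p = 0.0395) and 0.82 (SE 0.24, adjusted p = 0.0185). Naglu was at 0.11 (95% interval -0.12 to 0.33). Sgsh, the lumenal gene nearest to 0, was at 30.5, 29.7, 34.9 and 29.9 CPM in WT and at 29.6, 29.9, 37.8 and 33.9 in untreated Bbs2-/- libraries, which overlapped (log2 fold change 0.070, 95% interval -0.20 to 0.34). The calls of Ids and Hgsnat were fragile. Ids did not pass when any of WT 2, WT 3, WT 4, untreated Bbs2-/- 1, 2 and 4, or treated 1 and 2 was left out (adjusted p 0.0504 to 0.106), nor on log2 FPKM values (0.23, adjusted p = 0.110). Hgsnat did not pass without WT 2 (0.69, adjusted p = 0.0530), WT 4 (0.75, adjusted p = 0.0519) or untreated Bbs2-/- 1 (0.74, adjusted p of 0.05 after rounding), or without WT 2 and WT 3 (0.62, adjusted p = 0.157).

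The other lumenal members span lipid, glycogen and protein breakdown. Lipa, the acid lipase that splits cholesteryl esters and triglycerides, had the largest change of the class. It was at 284, 102, 74.5 and 112 CPM in WT 1 to 4 and at 740, 605, 566 and 487 in untreated Bbs2-/- 1 to 4, with WT 1 well above the other WT libraries and below all untreated Bbs2-/- libraries (log2 fold change 2.07, SE 0.38, adjusted p = 0.00156). Tpp1, a tripeptidyl peptidase, rose by 0.53 (SE 0.10, adjusted p = 0.00127). Gaa, the acid alpha-glucosidase that splits glycogen, was at -0.19 (95% interval -0.46 to 0.083), and Ppt1, which removes palmitate from proteins, at 0.11 (-0.037 to 0.26). With library size alone Ppt1 passed (0.29, adjusted p = 0.0155) and Gaa was at 0.00024.

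**Figure D2:**
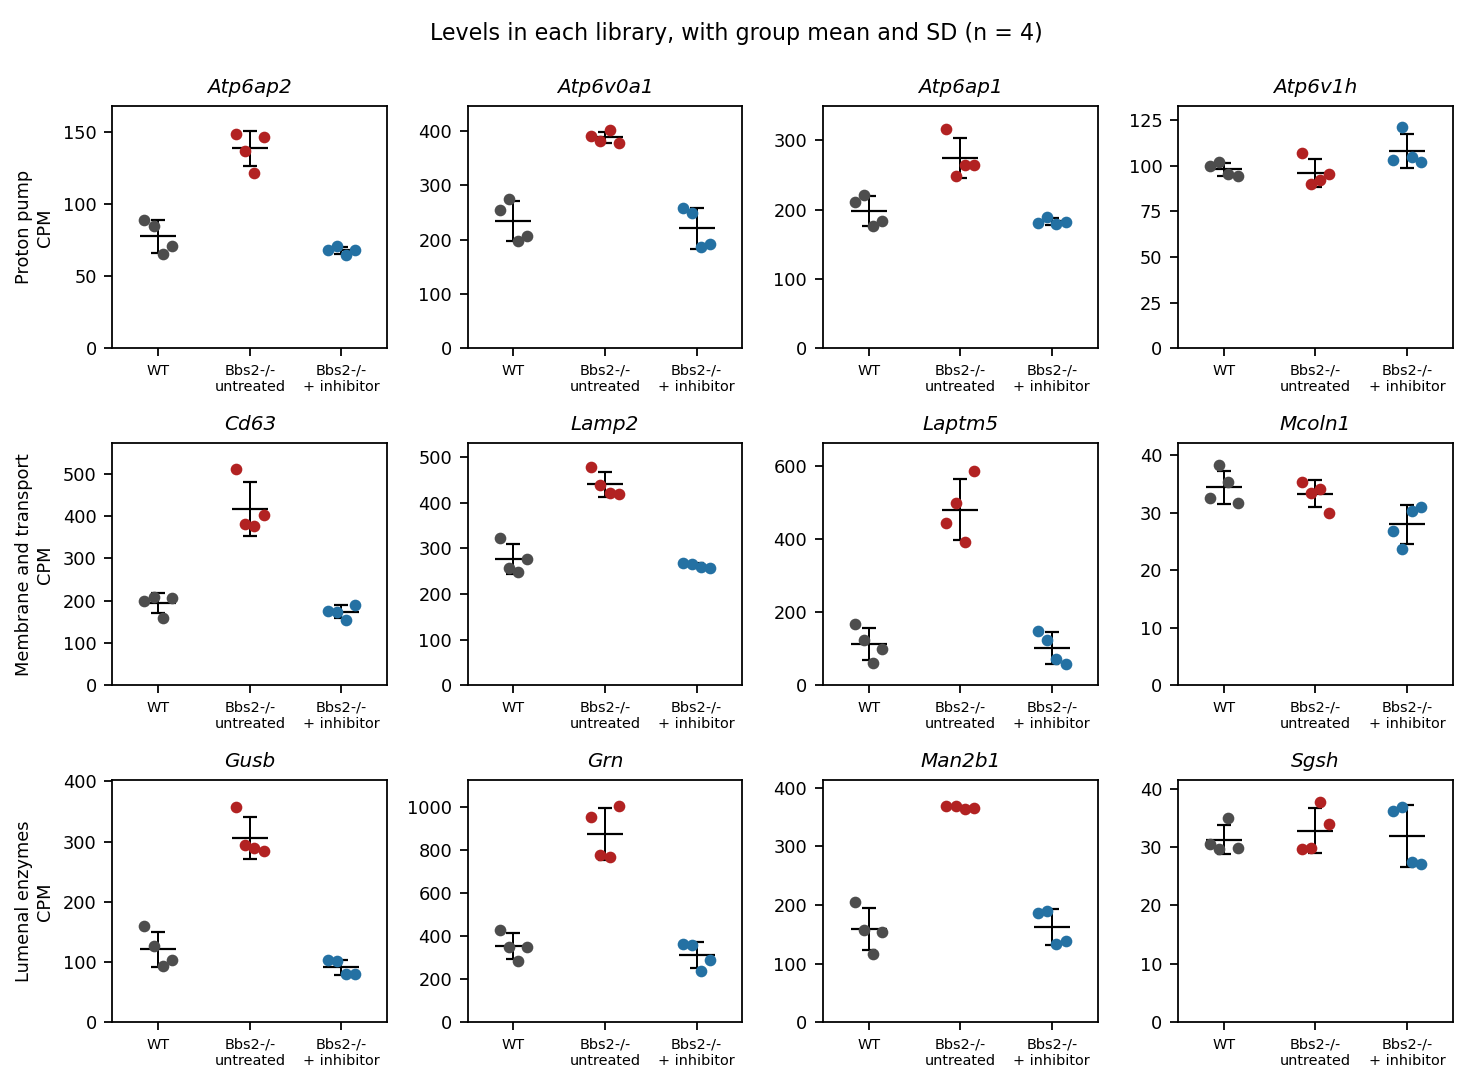
CPM in each of the 4 libraries of a group, from the left WT, untreated Bbs2-/- and treated Bbs2-/-, for 4 members of each class, with horizontal and vertical bars for the mean and SD. The first 3 genes of each row stand above both other groups in the untreated Bbs2-/- libraries, and the last gene of each row (Atp6v1h, Mcoln1, Sgsh) overlaps between WT and untreated Bbs2-/- libraries.

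The comparison of treated with untreated Bbs2-/- libraries asks which genes differ with the inhibitor. Here 27 of the 37 members were lower in treated libraries and none was higher (edgeR, adjusted p under 0.05), where 18.8% of all genes tested were lower and 18.5% higher. They were 10 pump, 8 membrane and 9 lumenal genes, with median log2 fold changes of -0.58, -0.81 and -0.86 over each whole class, against 0.032 over all genes tested. Every untreated library was above every treated library for 26 members, which was so for 20.7% of all genes tested. The untreated libraries enter both comparisons, so a high value in them counts in both.

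Cd68 was at 88.7, 61.0, 31.9 and 25.7 CPM in treated libraries 1 to 4, far under every untreated library (log2 fold change -3.43, SE 0.56, adjusted p = 0.000898). Lipa was at 126, 115, 82.7 and 70.2 CPM (-2.60, SE 0.39, adjusted p = 0.000494), and Laptm5 at 149, 124, 71.5 and 57.3 (-2.25, SE 0.35, adjusted p = 0.000617). In these genes, treated 1 and 2 were higher than treated 3 and 4, and so was the macrophage sum (1109.1 and 881.9 against 632.7 and 543.2 CPM). The order was not particular to them. The sums of all 3 classes had it, as did Gusb, Grn, Man2b1 and Atp6v1b2, given next. Sgsh and Naglu, which were not called, had it too, and Lamp1 did not. The reason for this order was not tested. Gusb was at 103, 101, 80.8 and 79.9 CPM (-1.75, SE 0.17, adjusted p = 4.97e-05), Grn at 364, 357, 240 and 291 (-1.48, SE 0.17, adjusted p = 0.000110) and Man2b1 at 187, 189, 133 and 139 (-1.18, SE 0.17, adjusted p = 0.000327). Atp6v1b2 was at 178, 223, 140 and 115 CPM in treated libraries 1 to 4 (-1.08, SE 0.22, adjusted p = 0.00242).

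Some members were close together in the treated libraries. Atp6ap2 was at 68.5, 71.0, 65.0 and 68.0 CPM (log2 fold change -1.03, SE 0.11, adjusted p = 7.4e-05). Lamp2 was at 267, 265, 260 and 257 (-0.74, SE 0.094, adjusted p = 0.000187). Both genes were at nearly 1 level in all treated libraries, below every untreated one. Cd63 was at 176, 174, 154 and 191 CPM (-1.27, SE 0.13, adjusted p = 6.59e-05). Atp6ap1 was at 180, 190, 179 and 182 CPM (-0.58, SE 0.10). Atp6v0a1 was more spread, at 258, 249, 186 and 191 CPM (SD 37.9, log2 fold change -0.81, SE 0.14). For these genes, too, every treated library was under the lowest untreated Bbs2-/- library.

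Members that had not passed against WT and were lower with the inhibitor were Atp6v1d (-0.30, adjusted p = 0.0104), Atp6v1f (-0.44, adjusted p = 0.00802), Npc2 (-0.88, adjusted p = 0.0110) and Ppt1 (-0.41, SE 0.067, adjusted p = 0.000726). The 10 members that did not pass were Atp6v0d1, Atp6v0e, Atp6v1e1, Atp6v1g1, Atp6v1h, Mcoln1, Scarb2, Naglu, Sgsh and Gaa, at -0.26 to 0.16 on the log2 scale. Of these, Atp6v1g1 passed without untreated Bbs2-/- 3 (-0.34, adjusted p = 0.0411) and Mcoln1 without untreated Bbs2-/- 4 (-0.32, adjusted p = 0.0449), and both passed with library size alone, as did Atp6v0e (-0.28, adjusted p = 0.0177). Atp6v1h was at 103, 121, 105 and 102 CPM in treated libraries, Mcoln1 at 26.8, 23.7, 30.3 and 31.0, and Sgsh at 36.1, 36.9, 27.4 and 27.1. Without the 4 libraries that held Foxj1 counts, Atp6v1d (-0.25, adjusted p = 0.0997), Npc2 (-0.75, adjusted p = 0.1), Hgsnat (-0.91, adjusted p = 0.0504) and Ctns (-0.26, adjusted p = 0.113) did not pass. Ctns also did not pass without untreated Bbs2-/- 1, treated 1 or treated 4 (adjusted p 0.0659 to 0.0851), and Ids (-0.33) without untreated Bbs2-/- 1, 2 or 4 or treated 1, 2 or 4 (adjusted p 0.0503 to 0.0895).

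Between treated Bbs2-/- and WT libraries no member passed the test (edgeR), where 0.257% of all genes tested did. At an unadjusted p under 0.05 (edgeR) there were 7 members, 18.9% of the 37 against 10.6% of all genes tested. DESeq2 called 1 member, Ppt1, and 275 of the 28798 genes that it tested. The values of 31 members were negative, with medians of -0.15, -0.17 and -0.15 for the pump, membrane and lumenal genes against -0.018 over all genes tested. With library size alone in place of TMM scaling these medians were -0.090, -0.12 and -0.11, and without the 4 libraries that held Foxj1 counts the lumenal median was 0.016. Ppt1, with the smallest p, was at 102, 105, 101 and 102 CPM in WT and at 86.2, 83.6, 83.6 and 79.1 in treated libraries (log2 fold change -0.30, SE 0.067, edgeR adjusted p = 0.115, DESeq2 adjusted p = 0.000610). All 4 treated libraries were under all 4 WT libraries for it and for Atp6v0e, Lamp1, Mcoln1 and Tpp1, at -0.20 to -0.30. These were 5 of 37 members, where 2.21% of all genes tested lay so and 2.68% lay the other way, as no member did. Widest were the intervals of Cd68 (-0.71, 95% interval -1.85 to 0.42) and Lipa (-0.54, -1.34 to 0.26), so differences of these sizes were not resolved.

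The macrophage and adipocyte markers moved with these results. The summed level of the pump genes was 1.37 times as high in untreated Bbs2-/- as in WT libraries by the group means, that of the membrane genes 1.76 times and that of the lumenal genes 2.09 times, while the macrophage sum was 5.41 times and the adipocyte sum 0.418 times as high. Treated over untreated, these ratios were 0.668, 0.481, 0.421, 0.168 and 2.10. Of the 15 macrophage markers, 13 rose in the first comparison and 14 fell in the second, and of the 10 adipocyte markers 9 fell and 9 rose. None of these 15 macrophage markers is one of the 37 members, but the member Cd68 is itself used as a macrophage marker. Within WT, the macrophage sum of WT 1 was 2.23 times the mean of the other 3, and the lumenal sum 1.35 times, the pump sum 1.06 times and the membrane sum 1.05 times. The adipocyte sum of WT 1 was 0.633 times the mean of the other 3, and WT 1 is also the library that held epididymis RNA. WT 1 was the highest WT library for 15 of the 23 members that rose against WT and for 1 of the other 14. Some markers of other cells were called too, to be read against the 19.6% of all genes tested that were higher against WT. With the inhibitor, 18.8% of all genes tested were lower and 18.5% higher. Between untreated Bbs2-/- and WT, 5 of 6 mast cell, 5 of 5 B cell, 3 of 4 tested neutrophil, 3 of 6 fibroblast, 2 of 7 T cell and 1 of 6 endothelial markers were higher. With the inhibitor 5, 2, 2, 4, 0 and 0 of them were lower, in the same order, and 3 endothelial markers were higher. The T cell and endothelial counts against WT were near the share of all genes. The fibroblast sum was 1445.8 to 2546.7 CPM in WT, 2914.6 to 3355.2 in untreated and 1548.5 to 1968.0 in treated Bbs2-/- libraries. In that order the mast cell sum was 16.4 to 31.5, 36.8 to 164.6 and 15.5 to 23.8 CPM, and the B cell sum 2.3 to 4.9, 5.6 to 26.4 and 4.4 to 12.7. The neutrophil sum averaged 21.8, 67.1 and 22.8 CPM, and its remaining tested marker was lower in untreated Bbs2-/- than in WT libraries. The part of these cells in the members' changes was not tested.

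When the macrophage level was added as a covariate, no member passed in either comparison, and 46 and 5 of all genes tested did. The fitted changes of the members did not all shrink. Against WT the class medians were 0.18, 0.25 and 0.14 in that fit for pump, membrane and lumenal genes. Examples chosen after their values were seen are Atp6v0c (0.61 in that fit, 0.60 without the covariate), Lamp1 (0.58 and 0.37), Cd63 (0.97 and 1.11), Idua (0.76 and 0.64) and Tpp1 (0.43 and 0.53), at adjusted p of 0.318 to 0.656 with it. On the other side were Lipa (0.052 and 2.07), Laptm5 (-0.12 and 2.09), Cd68 (-0.38 and 2.72) and Atp6v0a1 (0.18 and 0.73). With the inhibitor the class medians were -0.27, -0.46 and -0.36, with Cd63 at -1.12 and Lamp1 at -0.86, and Laptm5 at -0.051. Of the variance of that level, 86.4% lay between the groups, so group and macrophage level cannot be told apart in this fit, and the part of macrophages in the members' changes was not tested.

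**Figure D3:**
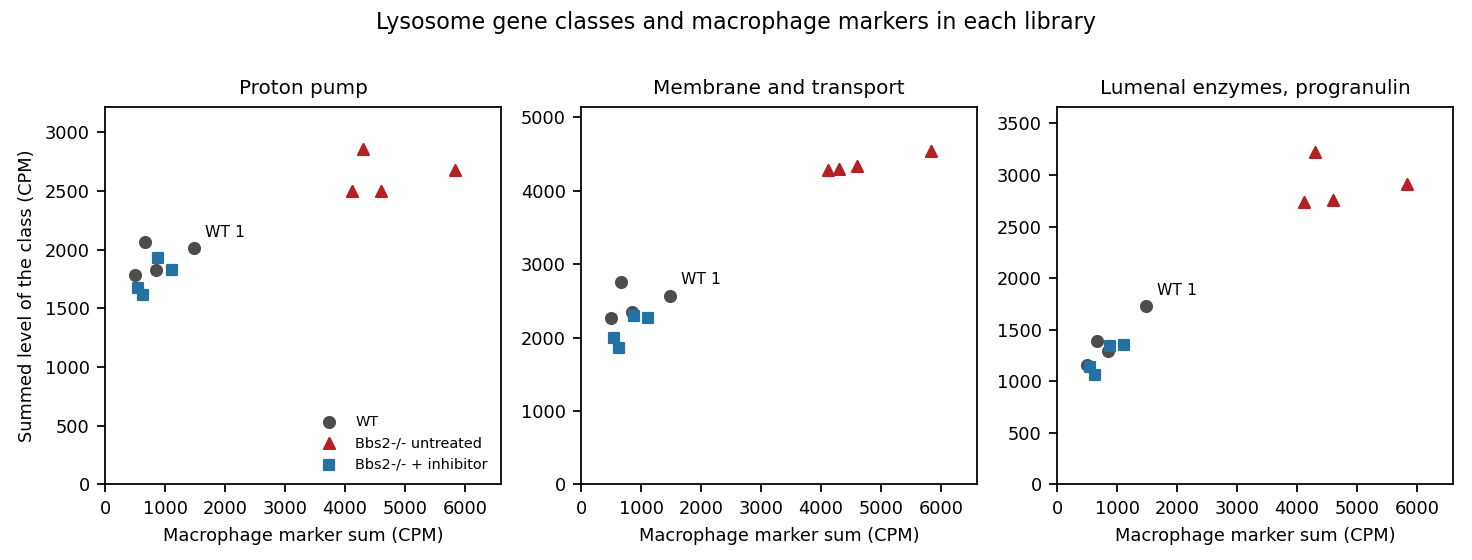
Summed CPM of the 15 pump, 10 membrane and 12 lumenal genes in each of the 12 libraries (vertical axis) against the summed CPM of 15 macrophage markers (horizontal axis). Untreated Bbs2-/- libraries lie at macrophage sums of 4111.7 to 5830.5 CPM and high lysosome sums in each panel, and WT and treated libraries lie together at low values on both axes, with WT 1 at 1485.5 CPM.

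Levels per length, as log2 FPKM, allow the members to be ranked. In all groups Lamp1 was first, at 8.72 ± 0.13 in WT, 9.02 ± 0.09 in untreated Bbs2-/- and 8.43 ± 0.033 in treated libraries (SD, n = 4). In WT it was followed on this scale by Npc2 (7.94 ± 0.29), Atp6v0e (7.67 ± 0.09) and Cd63 (7.66 ± 0.19), which did not differ beyond their spread. At the lower end in WT were Npc1 (3.37 ± 0.34), Ctns (3.35 ± 0.12), Sgsh (3.17 ± 0.10) and Idua (2.99 ± 0.22), again close together on the log2 FPKM scale. In untreated Bbs2-/- libraries Cd68 was second, at a level of 8.89 ± 0.23, where it was number 16 in WT (5.96 ± 1.12) and 19 in treated libraries (5.39 ± 0.80). Lipa moved from rank 21 in WT (5.57 ± 0.82) to 7 (7.72 ± 0.24) and lay at 24 in treated libraries (5.18 ± 0.39), and Laptm5 from 22 (5.53 ± 0.60) to 8 (7.59 ± 0.24) and 20 (5.33 ± 0.63).

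Several pump subunits have a second gene that is used in some cell types, and these paralogs are not among the 37. Of 10 such isoform genes, 7 were tested, 3 rose and 1 fell in untreated Bbs2-/- against WT. Tcirg1, subunit a3 of osteoclasts and macrophages, had a log2 fold change of 1.75 (SE 0.31, adjusted p = 0.00137) and Atp6v0e2, the second subunit e, one of -2.02 (SE 0.18, adjusted p = 3.53e-05). With the inhibitor Tcirg1 fell (-1.99, SE 0.32, adjusted p = 0.000706) and Atp6v0e2 rose (1.74, SE 0.18, adjusted p = 6.92e-05). Atp6v0d2, the second subunit d and another gene of osteoclasts and macrophages, is named after its values were seen. It was at 95.7, 21.2, 5.04 and 13.8 CPM in WT 1 to 4, at 256, 246, 187 and 171 in untreated Bbs2-/- 1 to 4 and at 23.0, 14.9, 6.03 and 1.73 in treated libraries. The log2 fold change was 2.66 (SE 0.87, adjusted p = 0.0314) against WT and -4.23 (SE 0.94, adjusted p = 0.00520) with the inhibitor. The first of these did not pass when 1 of WT 2, WT 3, WT 4, untreated Bbs2-/- 1 or untreated Bbs2-/- 2 was left out (adjusted p 0.0603 to 0.0792).

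Per length, the balance within a subunit pair differed between groups. Atp6v0d2 minus Atp6v0d1 was -3.22 ± 1.67 log2 FPKM units in WT and -4.21 ± 1.16 in treated libraries, and in untreated Bbs2-/- libraries it was 0.079 ± 0.30 (SD, n = 4). Tcirg1 minus Atp6v0a1 was -1.22 ± 0.56, -0.14 ± 0.25 and -1.28 ± 0.16 log2 FPKM units in WT, untreated and treated Bbs2-/- libraries, and Atp6v0e2 minus Atp6v0e was -1.87 ± 0.28, -3.74 ± 0.29 and -1.93 ± 0.19. In the d and e pairs the member itself, Atp6v0d1 (6.54, 6.39 and 6.46) or Atp6v0e (7.67, 7.53 and 7.45), had close mean log2 FPKM in the 3 groups. These differences of pairs were not tested, and paralogs may share reads in the counting.

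**Figure D4:**
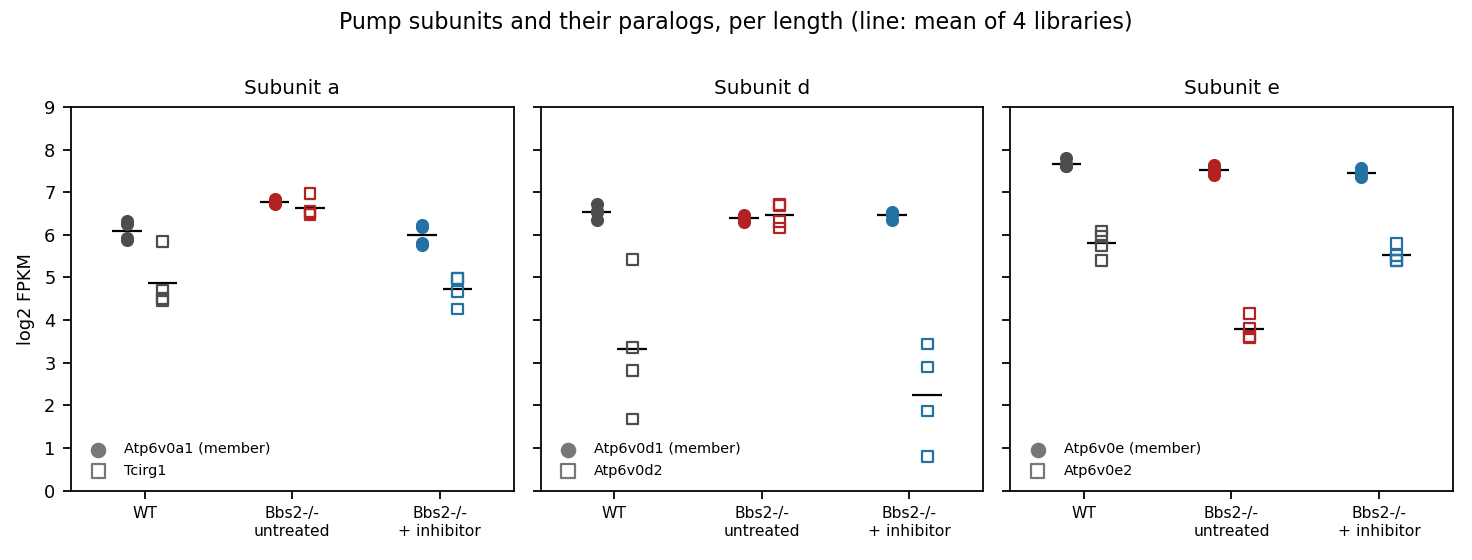
Log2 FPKM in each of the 4 libraries of a group for 3 pump subunits (a, d, e), with the member gene as filled circles and its paralog as open squares, and the mean as a line. The paralog of subunit d, Atp6v0d2, reaches the level of Atp6v0d1 in untreated Bbs2-/- libraries (6.47 against 6.39 on average), and that of subunit e, Atp6v0e2, is lowest there (3.79).

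Other genes around the lysosome were taken in lists, to be read against the 19.6% of all genes tested that were called higher and the 19.7% called lower in untreated Bbs2-/- against WT. Of 10 genes of pump assembly and regulation 3 rose and 1 fell, the latter being Rogdi (-0.90, SE 0.13, adjusted p = 0.000338), part of a complex that helps assemble the pump. Of 17 tested genes of nutrient sensing at the lysosome 4 rose, a share near that of all genes, and none fell, with Rragd, a Rag GTPase, at 2.30 (SE 0.40, adjusted p = 0.00101) from 0.715 ± 0.248 to 3.57 ± 0.98 CPM and Flcn, which acts on it, at 0.42 (adjusted p = 0.00441; 0.35 and adjusted p = 0.0646 without the libraries with Foxj1 counts). Of 15 genes of enzyme sorting 5 rose and 3 fell. The adaptor subunit Ap1b1 was at 0.80 (SE 0.13, adjusted p = 0.000745) and the sorting receptor Sort1, abundant in adipocytes, at -1.01 (SE 0.18, adjusted p = 0.00127). Of 16 tested genes of lysosome transport and fusion 5 rose and 1 fell, with Plekhm2, which couples lysosomes to kinesin, at 1.04 (SE 0.12, adjusted p = 0.000104). The medians of these 4 lists were 0.28, 0.10, 0.17 and 0.18, all under the medians of the 3 classes of members. Members and lists alike were chosen with earlier results of these data known, and this difference was not tested.

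Of 20 other membrane proteins 8 rose and 4 fell (median 0.12), among them Cln3 (1.26, SE 0.20, adjusted p = 0.000534) and Laptm4b (-0.76, SE 0.10, adjusted p = 0.000200), a relative of Laptm5 that went the other way. Of 25 tested other hydrolases 12 rose and 3 fell (median 0.36). Acp5, the tartrate-resistant acid phosphatase, fell from 439 ± 86.0 to 200 ± 23.2 CPM, a log2 fold change of -1.13 (SE 0.14, adjusted p = 0.000184), and was at 399 ± 25.7 in treated libraries. The cathepsins, the main lysosomal proteases, had 9 of 12 genes higher and 1 lower (median 1.02), the enzymes and activators of glycosphingolipid breakdown 8 and 1 of 12 (median 0.82), and the 4 genes of the MiT/TFE family, to which TFEB belongs, 3 and none (median 1.43). With the inhibitor the cathepsins had 8 lower and none higher, glycosphingolipid breakdown 9 lower and 1 higher, and the MiT/TFE genes all 4 lower. Of all genes tested, 18.8% were lower and 18.5% higher in that comparison. Against WT no gene of these lists passed in treated libraries.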

How the data were processed

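Adipose RNA of 12 samples was sequenced from stranded mRNA libraries, per the labels' protocols. The authors deposited estimated counts per gene (53431 identifiers), not scaled, of which 92.96 to 94.17% per library were whole within 1e-06. The authors also deposited log2 FPKM values (18810 genes), scaled so that the upper quartile was 3.96 in every library. The submitters' processing notes name the build mm10. What aligner, counter, strand setting and log2 offset were used is not given in the sources used here. No sample column was left out.

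Identifiers were matched to GENCODE vM21, which covered 52207 of the 53431 (51027 with the same version). Counts were rounded, filtered with filterByExpr (15968 genes left) and scaled by TMM. The 3 groups were fitted together with edgeR 4.0.16 in R 4.3.3 (robust quasi-likelihood test), with Benjamini-Hochberg adjustment over all genes tested and a threshold of 0.05. Intervals are 95% confidence intervals from that fit. CPM are counts per 1e6 of the TMM-scaled library size, and ± is the SD. The fit was tested on simulated counts. DESeq2 1.42.0, limma 3.58.1, other scalings, filters and thresholds, a replicate block, leaving out libraries and a macrophage covariate (mean log2 CPM of 15 markers, prior count 2) were alternatives. Depth was 16317865 to 20224200 counts per library, and the common biological coefficient of variation was 0.29.

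The members and all gene lists were chosen with earlier results of these data known. Values in every library are given for the 3 members of each class with the smallest p in untreated Bbs2-/- against WT and the 1 nearest to 0. The pump gene Atp6ap1, next after these by p, is given as well. Cd68, Lipa, Lamp1, Ppt1 and Atp6v0d2 were added after their values were seen. Of other lists, up to 2 genes with the smallest p are named. The symbols Vamp7, Tmem55b, Pgap6 and Dnai1 were not matched. Replicate numbers were checked for pairing by correlating deviations from the group means.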

Additional observations from a re-analysis of the deposited data

Results flagged for a closer look

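In 8 of 111 sets of 4 libraries (37 members in 3 groups), 1 library stood apart from the other 3 by Dixon's criterion at the 95% level, where chance gives about 1 in 20. Among untreated Bbs2-/- libraries, Cd68 was at 713 CPM in library 1 against 485 to 523 in the others, Gusb at 358 in library 1 against 285 to 294, and Atp6v1d at 72.8 in library 1 against 64.6 to 64.9. Naglu was at 42.6 CPM in untreated library 2 against 47.0 to 47.1. Among WT libraries, Atp6v0e was at 162 CPM in WT 2 against 143 to 145, Atp6v1f at 55.9 in WT 1 against 69.3 to 71.6, and Sgsh at 34.9 in WT 3 against 29.7 to 30.5. Ids was at 71.3 CPM in treated library 3 against 62.6 to 64.0.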

How the results depend on the processing

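The number of members called higher in untreated Bbs2-/- against WT was 23. It was 0 with the macrophage level as a covariate, 9 against a minimum log2 fold change of 0.5, 19 at an adjusted p under 0.01 and 17 to 29 in the other alternatives, with 20 to 24 when 1 library was left out. Of all 15968 genes tested, 3124 were higher in the main fit, 7 with the covariate and 1354 against the minimum change. At an adjusted p under 0.01, 3751 were called in either direction. Without WT 2 and WT 3, where 17 members were called, 1724 of 16877 genes were higher. For treated against untreated Bbs2-/- the 27 lower calls became 0 and 16 with the covariate and the minimum change, 23 at an adjusted p under 0.01, 23 to 30 otherwise and 25 to 28 without 1 library. Of all 15968 genes tested, 3000 were lower in the main fit, 3 with the covariate and 1389 against the minimum change. At an adjusted p under 0.01, 3506 were called in either direction. Treated against WT gave 0 in all alternatives but DESeq2 (1, where 275 of 28798 genes were called), and without the 4 libraries with Foxj1 counts the lumenal median was 0.016. Library size alone moved the split of all genes from 3124 higher and 3139 lower to 4460 and 2005 against WT, and from 2947 and 3000 to 2095 and 3802 with the inhibitor, where the median of all genes moved from 0.032 to -0.10.

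With the replicate block the 3 counts were 23, 26 and 0, and Ctns with the inhibitor (-0.28, adjusted p = 0.0541) was the call it changed. Same-numbered libraries share only a number: of 12 pairs, with correlations of -0.149 to 0.308, 4 were over 0.1, and 5 of 12 libraries correlated best with their own number.

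Signs that turned in untreated Bbs2-/- against WT were, with library size alone, Atp6v0d1 0.10, Atp6v0e 0.13, Atp6v1e1 0.033, Atp6v1h 0.15, Mcoln1 0.14 and Gaa 0.00024. Without WT 2 and WT 3 they were Atp6v0e 0.0019 and Mcoln1 0.061, and on log2 FPKM with either filter Sgsh -0.015. With the macrophage covariate they were Atp6v0d1 0.067, Atp6v1a -0.27, Atp6v1b2 -0.086, Cd68 -0.38, Mcoln1 0.36, Scarb2 -0.26, Laptm5 -0.12, Naglu -0.17, Sgsh -0.12, Ppt1 -0.0057 and Atp6v0d2 -2.01. Without 1 library Atp6v0e ranged from -0.077 to 0.025, Atp6v1h from -0.082 to 0.031 and Mcoln1 from -0.088 to 0.029. With the inhibitor, library size alone gave Atp6v0d1 -0.11, Atp6v1e1 -0.0048 and Naglu -0.11, and log2 FPKM gave Sgsh 0.0092. The covariate gave Atp6v0d1 -0.13, Atp6v1a 0.016, Atp6v1b2 0.042, Atp6v1e1 -0.0022, Scarb2 0.41, Sgsh 0.14 and Atp6v0d2 0.81. Without 1 library Atp6v0d1 ranged from -0.037 to 0.064, Naglu from -0.063 to 0.11 and Sgsh from -0.12 to 0.027. The cause of these turns was not tested.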

Other observations

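The spread of the members within a group differed by gene. In WT libraries the coefficient of variation over 4 libraries was 1.77 to 36.1% for pump genes (median 10.8%), 8.48 to 75.8% for membrane genes (median 14.4%) and 1.91 to 66.7% for lumenal genes (median 16.5%). The upper ends were Atp6v1a, Cd68 and Lipa. In untreated Bbs2-/- libraries the upper ends were 15.9, 25.8 and 27.0%. Untreated Bbs2-/- 1 was the highest of its group for 21 of the 37 members, and treated 2 for 19. Gpld1, an enzyme that cuts lipid anchors of surface proteins, had the smallest p of the other hydrolases and was at 16.5 ± 0.606 CPM in WT, 5.12 ± 0.638 in untreated and 16.2 ± 1.92 in treated Bbs2-/- libraries (SD, n = 4).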
